A study of Mus musculus with 4 samples.

Results

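MicroRNA host transcripts are the long RNAs from which microRNAs are cut, and 6 of them were followed here in mouse embryonic stem cells that carry or lack the microRNAs from miR-290 to miR-295. Genes were taken from GENCODE vM21 by name, as symbols that start with Mir and end with hg, together with Larp7, the gene in whose body the miR-302 cluster lies. Of 11 such genes, 6 had at least 20 counts summed over the 4 libraries, out of 55421 gene identifiers in the table: Larp7, Mir17hg, Mir22hg, Mir124a-1hg, Mir142hg and Mir9-3hg. The lowest gene inside this limit was Mir9-3hg, with 77 counts in all, and the highest gene outside it was Mir155hg, with 2. Mir670hg, Mir124-2hg, Mir99ahg and Mir133a-1hg held 0 counts in each library, and 3 counts per library, used here as the limit that a count of 0 allows, correspond to between 0.236 and 0.298 CPM (a count divided by its library's size, on edgeR's TMM scale).

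The cells were E14 mouse embryonic stem cells, from the blastocyst of a 129/Ola background, grown on gelatin in 15% serum with 100 U/ml of the cytokine LIF, which keeps such cells undifferentiated. The KO group (2 libraries) lacked this cluster and the WT group (2 libraries) was wild type, with no other treatment stated for either. Libraries are described as biological duplicates. Whether more than 1 KO clone was used is not given, so p-values cover only the spread seen among these 4 libraries. Libraries were made from 500 ng of RNA with a 3' tag kit, QuantSeq FWD, in which reads lie near the poly(A) end of a transcript.

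A microRNA gene is first transcribed as a long primary transcript, often capped and with a poly(A) tail. In the nucleus the DROSHA-DGCR8 complex cuts a hairpin out of it, and DICER then trims the hairpin to the mature microRNA. Bases 2 to 8 of the mature RNA, the seed, select its targets. The level of a host transcript is therefore a balance of transcription, cutting and decay, and is not the level of the mature microRNA, which a library of poly(A) tags does not hold. Some hosts carry the hairpin in an exon, so that cutting destroys the transcript, and others carry it in an intron.

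The mature products are shown first, because the bases AAGUGC within the seed are what ties 2 of these hosts to the deleted cluster. Capitals mark the seed, written 5' to 3' (RefSeq, GRCm38.p6). The deleted cluster on chromosome 7 gives products with AAGUGC at bases 2 to 7:
miR-290a-3p: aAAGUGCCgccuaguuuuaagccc
miR-291a-3p: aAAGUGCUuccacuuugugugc
miR-294-3p: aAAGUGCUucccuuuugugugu
miR-295-3p: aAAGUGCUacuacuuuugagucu

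The miR-302 cluster, inside Larp7, has the same hexamer at bases 2 to 7 of miR-302b-3p and miR-302d-3p, while in miR-302c-3p, as listed, the product starts 1 base later. The miR-302a-3p product is named only. The products are:
miR-302b-3p: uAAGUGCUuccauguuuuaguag
miR-302d-3p: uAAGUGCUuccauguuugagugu
miR-302c-3p: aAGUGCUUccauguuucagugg
miR-367-3p: aAUUGCACuuuagcaaugguga

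Mir17hg carries the miR-17-92 cluster. In miR-17-5p and miR-20a-5p the hexamer AAGUGC sits 1 base further in, at bases 3 to 8. The same host gives miR-92a-3p, whose seed AUUGCAC is that of miR-367-3p, so Mir17hg and the cluster inside Larp7 share this seed:
miR-17-5p: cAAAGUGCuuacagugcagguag
miR-20a-5p: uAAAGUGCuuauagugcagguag
miR-18a-5p: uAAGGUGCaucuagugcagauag
miR-19a-3p: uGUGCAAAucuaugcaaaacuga
miR-92a-3p: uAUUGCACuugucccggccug

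The remaining hosts give microRNAs whose seeds hold no AAGUGC, shown so that the contrast with the groups above can be read. No sequence is shown for the microRNAs of Mir124a-1hg:
miR-22-3p: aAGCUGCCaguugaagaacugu
miR-142a-3p: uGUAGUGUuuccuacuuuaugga
miR-142a-5p: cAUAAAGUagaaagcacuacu
miR-9-5p: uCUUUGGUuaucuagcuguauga

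The 6 genes hold their microRNAs in different ways (plot of annotated positions). Larp7 (ENSMUSG00000027968, GRCm38 chromosome 3, 127536714 to 127553349, minus strand, protein coding) has Mir302b, Mir302c, Mir302a, Mir302d and Mir367 in an intron, and all of these are annotated on the plus strand. Larp7 is thus a host of the miR-302 cluster by position only, and its messenger RNA is not the primary transcript of that cluster. Mir17hg (ENSMUSG00000089726, chromosome 14, 115042879 to 115046727, plus strand) has 6 microRNA genes on its own strand, all within exons of its 3536 exonic bases.

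Mir22hg (ENSMUSG00000085148, chromosome 11, 75461539 to 75466676, plus strand) has Mir22 in an exon, and Tlcd2, a protein-coding gene on the same strand, overlaps it from 75461715 to 75470899. Mir124a-1hg (ENSMUSG00000097545, chromosome 14, 64587331 to 64593961, plus strand) has Mir124a-1 and Mir3078 in exons. Mir142hg (ENSMUSG00000084796, chromosome 11, 87755577 to 87757270, plus strand) has Mir142 in its intron, with only 269 exonic bases, and Mir142b on the other strand. Mir9-3hg (ENSMUSG00000097023, chromosome 7, 79500026 to 79534403, plus strand) spans 34378 bases and has Mir9-3 in an intron.

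**Figure D1:**
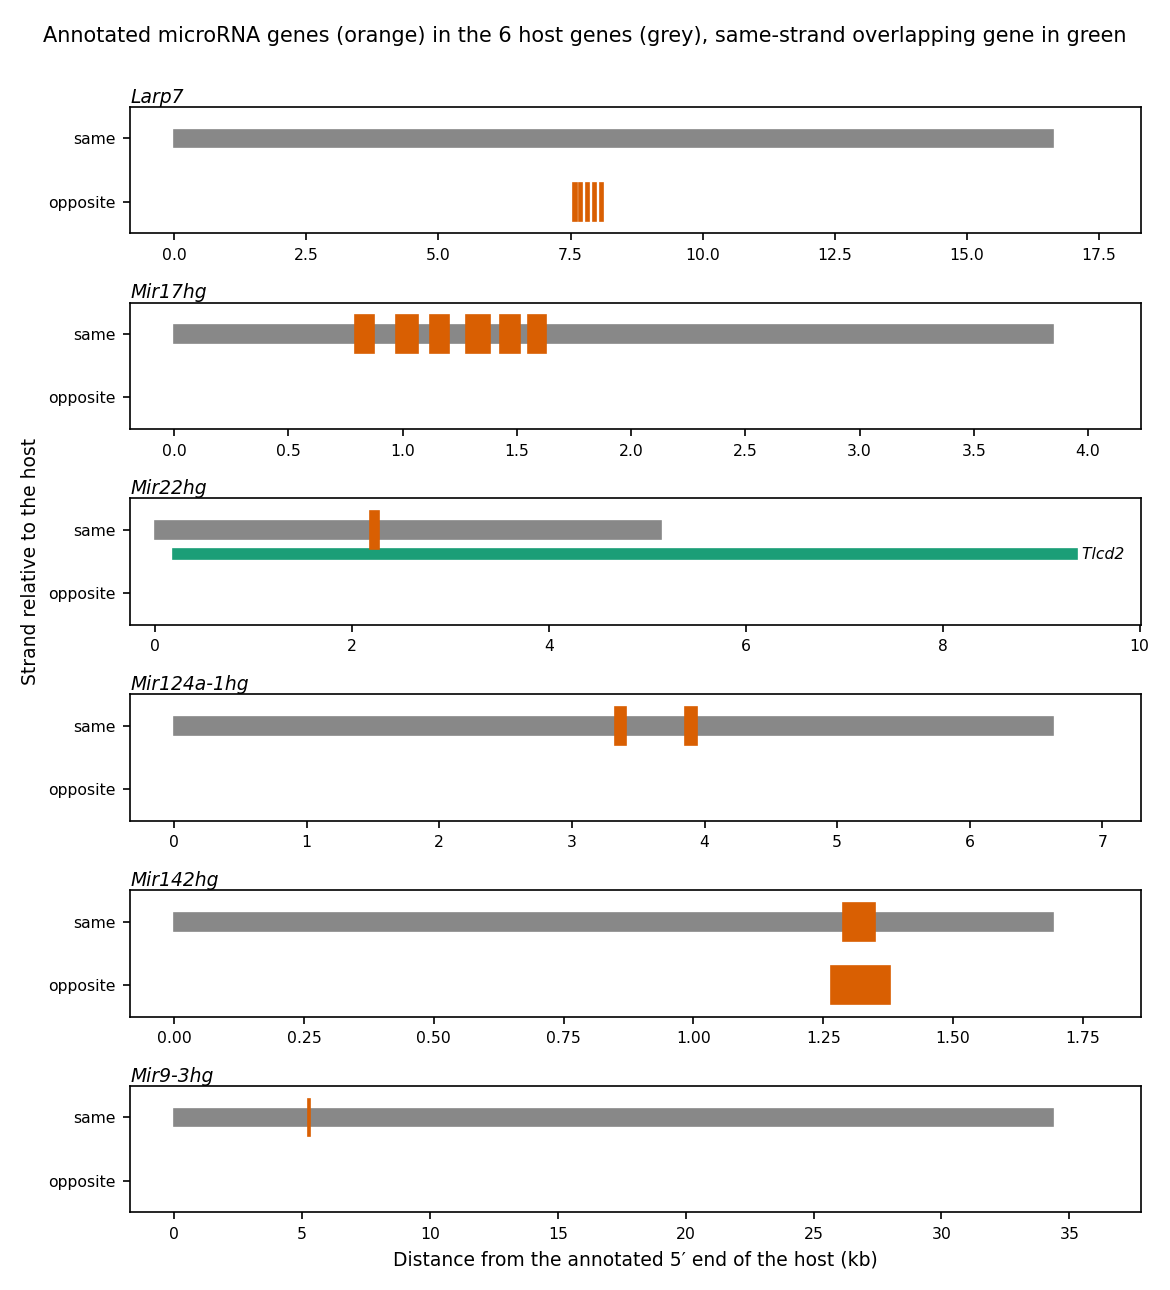
Position of annotated microRNA genes (orange) in each of the 6 host genes (grey), with the distance from the annotated 5' end of the host in kb on the x axis and the strand relative to the host on the y axis. The 5 microRNA genes inside Larp7 lie on the opposite strand, and Tlcd2 (green) overlaps Mir22hg on the same strand.

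Facts of the whole series frame what follows. The libraries held between 9925557 and 12726123 counts. Of 14427 genes tested with edgeR's quasi-likelihood test, 1071 were higher in KO (7.42%) and 715 lower (4.96%), in all 12.4%, at a Benjamini-Hochberg adjusted p below 0.05, and the median log2 fold change (KO over WT throughout) was -0.0061. At the deleted locus the 7 plus-strand microRNA genes held 88 and 39 counts in WT (95% Poisson intervals 70.6 to 108 and 27.7 to 53.3) and 0 in both KO libraries. Of the 2 minus-strand genes there, Mir290b, which lies within Mir290a, held 4 counts in KO library 1 and 0 in the others, against the label of that library, and Mir292b held 0 throughout. Whether these reads come from the locus was not tested. Summed CPM of 10 pluripotency markers was 4060 and 4210 in KO and 4100 and 4520 in WT, with 2 of the 10 lower, Klf4 (-1.59) and Utf1 (-0.91). That of 13 primitive endoderm markers was 96.6 and 77.9 in KO and 334 and 310 in WT, with 10 of the 13 lower. Of these 10, Pdgfra, Hnf4a and Cubn passed the low-count filter (0.836 CPM) only through WT, the group in which they were high. Pdgfra aside, none of the marker calls in this paragraph was checked under other settings.

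None of the 6 host transcripts passed the test in either direction. In edgeR 0 were called, against 12.4% of all genes, 1 had an unadjusted p below 0.05 (Mir142hg), and in DESeq2 0 were called and 0 had an unadjusted p below 0.05. Mir142hg and Mir9-3hg, both of them low in all libraries, had the largest ratios, 2.38 and 2.27, while those of the more abundant Larp7 and Mir17hg were 1.15 and 1.19. The KO and WT values did not overlap for 5 of 6 transcripts (83.3%), 4 with KO above WT and 1 with KO below, while 57.9% of all genes tested were of this kind, 29.4% with KO above and 28.5% with KO below. The log2 fold change was above 0 for 5 of 6, against 49.5% of all genes, with a median of 0.42 and a range from -0.61 to 1.25. In CPM all 6 were higher in WT library 1 than in WT library 2, as 49.2% of tested genes were. In KO, 2 of 6 were higher in library 1 than in library 2, as 48.8% of tested genes were.

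Levels fell into tiers (plot of levels by library). In a 3' tag library a transcript gives reads only near its end, so CPM is not divided by length here. Larp7 was highest, with a lowest library of 144 CPM, above all values of Mir17hg, whose highest was 49.8. Mir17hg in turn was above all values of Mir22hg, which reached 11.4. The ranges of Mir22hg and Mir124a-1hg over the 4 libraries overlapped, and so did those of Mir142hg and Mir9-3hg. Within libraries Mir22hg was above Mir124a-1hg in 3 of 4, and Mir142hg was above Mir9-3hg in 4 of 4. Among the 14427 genes tested Larp7 stood at percentile 92 of mean CPM, Mir17hg at 70.6, Mir22hg at 32.7, Mir124a-1hg at 26.7, Mir142hg at 16.4 and Mir9-3hg at 11.7.

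**Figure D2:**
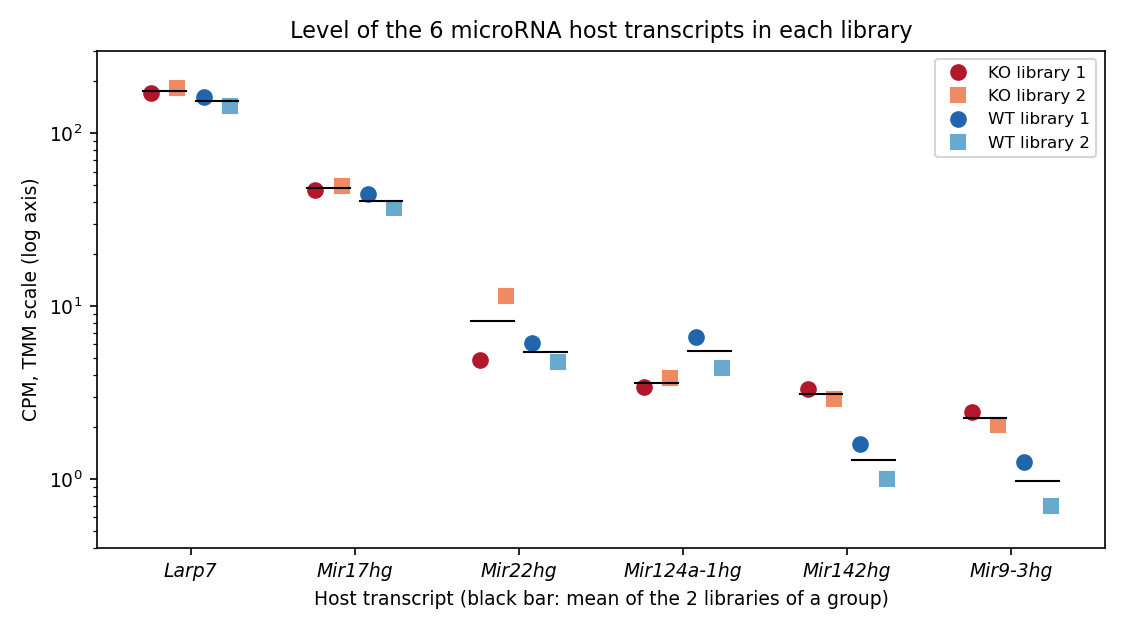
CPM on the TMM scale (y axis, logarithmic) of the 6 host transcripts (x axis) in each of the 4 libraries, with a black bar at the mean of each group. Larp7 lies between 144 and 182 CPM and Mir9-3hg between 0.696 and 2.44, and the KO points lie above the WT points for Larp7, Mir17hg, Mir142hg and Mir9-3hg.

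Mir17hg is the primary transcript of the miR-17-92 cluster, which promotes proliferation and is amplified in lymphomas. It held 599 and 583 counts in KO libraries 1 and 2, and 531 and 372 in WT libraries 1 and 2. The levels were 47.1 and 49.8 CPM in KO and 44.3 and 37 in WT, so that both KO values were above both WT values, with WT library 1 close to KO. The log2 fold change was 0.25 (SE 0.19, edgeR adjusted p = 0.424), with means of 48.4 ± 1.85 CPM for KO and 40.7 ± 5.17 for WT (SD, n = 2 each). Its 95% interval, which is not adjusted for the number of genes, runs from 0.891-fold to 1.59-fold. The interval includes 1, and a miss of the threshold does not show that the level was the same.

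Larp7 encodes a La-related protein that binds 7SK RNA and so holds the elongation factor P-TEFb in reserve. Counts were 2169 and 2133 in KO, and 1938 and 1445 in WT. On the CPM scale these were 171 and 182 in KO, against 162 and 144 in WT, and the groups did not overlap. Its log2 fold change was 0.21 (SE 0.15, edgeR adjusted p = 0.409), with a 95% interval from 0.915-fold to 1.46-fold. The microRNA genes of the miR-302 cluster held 0 counts in every library.

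Zgrf1, a gene for a zinc finger protein, starts 140 bases from Larp7 on the other strand. It held 395 and 442 counts in KO and 423 and 405 in WT, with a log2 fold change of -0.14 (SE 0.20, edgeR adjusted p = 0.709). Its KO and WT values overlapped. Neither gene of this divergent pair was called.

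Mir142hg is best known from blood cells, in which miR-142 is abundant. It held 42 and 34 counts in KO, and 19 and 10 in WT. As CPM, KO had 3.31 and 2.90, and WT had 1.59 and 0.995, so both KO libraries stood above both WT libraries. The log2 fold change was 1.25 (SE 0.51, unadjusted p = 0.036, edgeR adjusted p = 0.145). Its 95% interval of 1.07-fold to 5.27-fold lies above 1, but after adjustment over all genes the difference was not called, and DESeq2 gave an adjusted p of 0.312. Mir142 itself, in the intron, held 2 and 2 counts in KO and 0 and 0 in WT, too few to set a direction.

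Tspoap1, which encodes a binding partner of the mitochondrial protein TSPO, lies 3271 bases downstream of Mir142hg on the same strand. It held 37 and 19 counts in KO and 5 and 4 in WT, and rose by 2.45 on the log2 scale (SE 0.64, edgeR adjusted p = 0.0373). It passed the low-count filter (0.836 CPM) through the KO libraries alone, as 0 of 2 WT libraries reached that level. Among other settings, this call was lost with DESeq2 (2.47, adjusted p = 0.0883) and without any 1 of the 4 libraries: without KO library 1 it was 1.97, without KO library 2 it was 2.81, without WT library 1 it was 2.48 and without WT library 2 it was 2.42. Of 12 haematopoietic markers, Ptprc, which defines white blood cells, held at most 1 count in any library, while Laptm5 held 569 to 1136 counts and Cd34 held 21 to 45. The summed CPM of the 12, most of it from Laptm5, was 85.7 and 116 in KO and 107 and 71.6 in WT, with overlap between the groups. Of the 9 tested, Tal1 was higher (4.88), with 57 and 80 counts in KO and 2 and 2 in WT. Runx1 was lower, with 1 and 5 in KO and 53 and 32 in WT. Both are transcription factor genes of early blood. Each passed the low-count filter only through the group in which it was high, and neither call was checked under other settings. The part of such cells in the level of Mir142hg was not tested. In bulk RNA, fewer cells of a type and less RNA per cell cannot be told apart.

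Mir9-3hg carries miR-9, a microRNA of neural progenitors. It held 31 and 24 counts in KO, and 15 and 7 in WT. Levels were 2.44 and 2.05 CPM in KO, against 1.25 and 0.696 in WT, without overlap. The log2 fold change was 1.18 (SE 0.56, edgeR adjusted p = 0.201) with a 95% interval from 0.953-fold to 5.39-fold. Counts this low leave wide error: the 7 counts of WT library 2 have a 95% Poisson interval of 2.81 to 14.4, which covers counting error only. Only 1 of its WT libraries, against both KO libraries, reached the level that the low-count filter asks for, so it was tested largely through the group in which it was higher.

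Mir124a-1hg, known from the retina and brain, was the only one of the 6 with lower values in KO. It held 43 and 45 counts in KO, and 79 and 44 in WT. CPM was 3.38 and 3.84 in KO, and 6.59 and 4.38 in WT, so the groups did not overlap but WT library 2 was close to KO. The log2 fold change was -0.61 (SE 0.40, edgeR adjusted p = 0.365), and it moved to -0.28 without WT library 1 and to -0.87 without WT library 2. Its size thus rested on 1 WT library.

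The log2 fold changes of these neural hosts had opposite signs, with neither called. Of 12 neural markers 7 were tested. Pax6, a transcription factor of eye and brain, was higher (5.12), with 203 and 193 counts in KO and 5 and 5 in WT. It passed the low-count filter through the KO libraries alone. Elavl3, a neuronal RNA-binding protein gene, was lower (-2.32), with 96 and 43 in KO and 146 and 446 in WT. Neither call was checked under other settings. Dcx and Neurog2, which mark young neurons and their progenitors, held at most 1 count in any library, while Tubb3 held 291 to 796, Sox1 72 to 124, Map2 64 to 133 and Nes 35 to 71. Summed CPM of the 12 was 106 and 77.1 in KO and 58 and 114 in WT. The part of neural cells in the levels of Mir9-3hg and Mir124a-1hg was not tested.

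Mir22hg carries miR-22, a broadly expressed microRNA, and was the transcript with overlapping groups. It held 62 and 134 counts in KO, and 73 and 48 in WT. KO library 2, with 11.4 CPM, stood above the other 3 libraries, which had 4.88 in KO library 1 and 6.09 and 4.78 in WT. Its log2 fold change was 0.58 (SE 0.43, edgeR adjusted p = 0.43), 1.07 without KO library 1 and -0.15 without KO library 2. The direction was therefore set by that library. Tlcd2, a TLC domain gene that shares its strand and much of its span, held 45 and 61 counts in KO and 44 and 72 in WT, with a log2 fold change of -0.30 (SE 0.44), and did not show the high value of KO library 2. Wdr81, which starts 6822 bases upstream on the other strand, held 78 and 55 in KO and 50 and 34 in WT (0.52, SE 0.39).

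**Figure D3:**
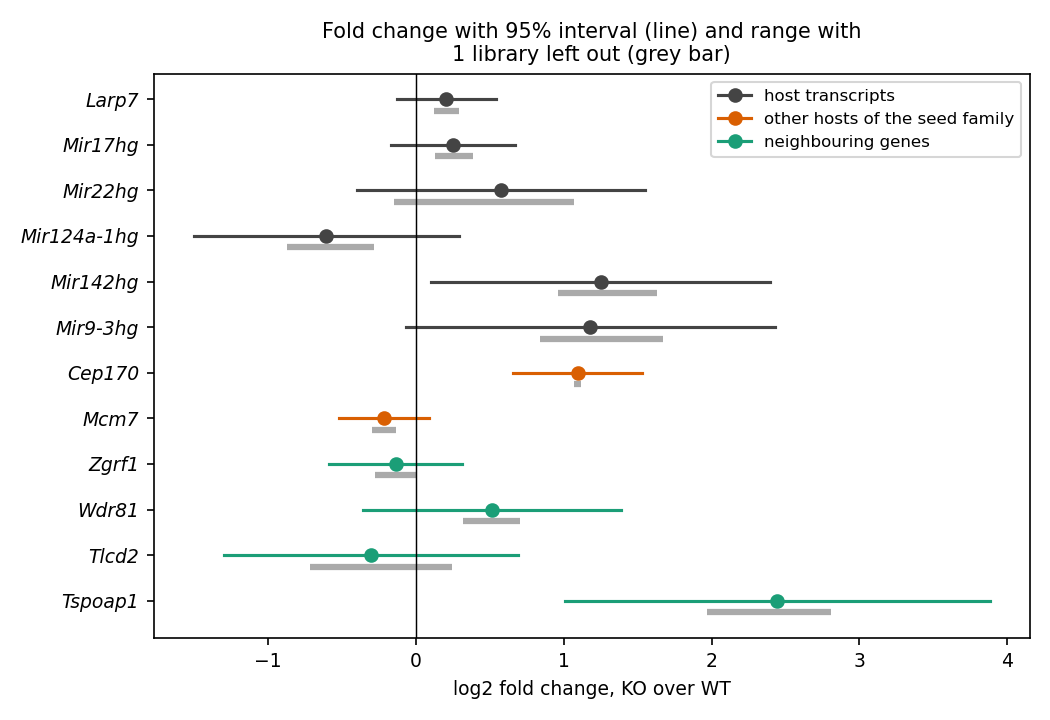
Log2 fold change, KO over WT (x axis), of the 6 host transcripts (dark), of 2 other hosts of microRNAs with AAGUGC (orange) and of 4 neighbouring genes (green); lines are 95% intervals that are not adjusted for the number of genes, and grey bars span the values with 1 library left out. The interval of Mir142hg lies above 0 and that of Mir9-3hg reaches it, and the grey bar of Mir22hg crosses 0.

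The microRNA genes inside the hosts were also counted in rows of their own. Of 17 microRNA genes that overlap one of the 6 hosts, 11 lie on the host's strand, and 1 of the 17, Mir142, held any count. The 6 microRNA genes of miR-17-92 held 0 counts in libraries in which Mir17hg held up to 599. They span 115043671 to 115044506, nearer the 5' than the 3' end of Mir17hg.

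Sites for the lost seed in the hosts themselves were searched on the sense strand of the longest annotated transcript, as the 6 letters GCACTT. A longer form, AGCACTT, adds a base before it, and the longest, AGCACTTA, adds a base on both sides, so each match to a longer form is also a match to the shorter. Mir17hg held 4 matches to GCACTT, of which 3 lay inside its own hairpins, and 57.3% of transcripts of like length (a length ratio of at least 0.8, shorter over longer) held at least 1. Its single AGCACTTA (5.5% of like transcripts) was in a hairpin too. Mir9-3hg held 2 matches to GCACTT (55.9%), 1 of them within AGCACTT (28.9%), and Mir124a-1hg held 1 (63.2%). Larp7, Mir22hg and Mir142hg held 0, against 37.3%, 29.4% and 5.9% of transcripts of their length. A match is a description of the letters in these windows only.

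Hosts of microRNAs with AAGUGC in the seed, at bases 2 to 7 or 3 to 8, were found by position. These are genes that contain such a microRNA on their own strand. Only the 1022 of 2202 microRNA genes with a mature sequence matched by position could be searched, so hosts of the rest would be missed. Among those searched there were 4 such hosts, Mir17hg, Mcm7, Cep170 and Gabra3. Their products with AAGUGC are shown for comparison with those of the deleted cluster:
miR-106b-5p: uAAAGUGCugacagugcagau
miR-93-5p: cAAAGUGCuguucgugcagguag
miR-350-5p: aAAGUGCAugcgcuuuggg
miR-105: cCAAGUGCucagaugcuuguggu

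Cep170, a centrosomal protein gene with miR-350 in it, had mean levels of 42.4 ± 0.574 CPM (KO) and 19.8 ± 0.399 CPM (WT; SD, n = 2), a rise of 1.10 on the log2 scale (SE 0.19, edgeR adjusted p = 0.0087). Its 4 libraries held 533 and 501 counts in KO and 234 and 202 in WT, well apart, and the call held under each of the 11 alternatives. Mcm7, a subunit of the replicative helicase that hosts miR-106b and miR-93, held 6876 and 6922 counts in KO and 7446 and 6964 in WT. It had a log2 fold change of -0.22 (SE 0.14, edgeR adjusted p = 0.342) and was not called. Gabra3, a GABA receptor subunit gene with miR-105, held at most 5 counts in any library and was not tested. Of the 3 tested hosts found in this search, 1 was higher and 0 lower, where 7.42% and 4.96% of all genes were. These 3 genes are too few to read a share from. Of the 2 products listed for Cep170, miR-350-5p has AAGUGC at bases 2 to 7, as in the deleted cluster, and miR-350-3p has none in its seed. In Mir17hg and Mcm7 the products with AAGUGC hold it at bases 3 to 8, and their other listed products have none in the seed.

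Among all genes with an annotated microRNA gene inside them on the same strand the shares called were near those of all genes. Of 979 such genes 675 were tested, 61 were higher in KO (9.04%) and 32 lower (4.74%), against 7.42% and 4.96% of all genes, and the median log2 fold change was 0.01. The called hosts with the largest changes were Sgcz, Cpne7, Pdgfra and Acoxl, each of which passed the low-count filter only through the group in which it was high. Sgcz, a sarcoglycan gene that hosts miR-383, held 38 and 47 counts in KO and 1 and 1 in WT. Cpne7, a copine gene, held 1 and 0 in KO and 15 and 14 in WT, and Acoxl, an acyl-CoA oxidase-like gene, held 47 and 41 in KO and 1 and 6 in WT. Pdgfra, a growth factor receptor gene of the primitive endoderm, held 4 and 4 in KO and 57 and 35 in WT, and fell by 3.61 on the log2 scale (SE 0.59, edgeR adjusted p = 0.00588). Fitted changes at counts of 0 or 1 depend on the prior count, so none is given for Sgcz and Cpne7. Among other settings, the call of Cpne7 was lost with DESeq2 (adjusted p = 0.0581), without KO library 1 (0.0697) and without KO library 2 (0.143).

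**Figure D4:**
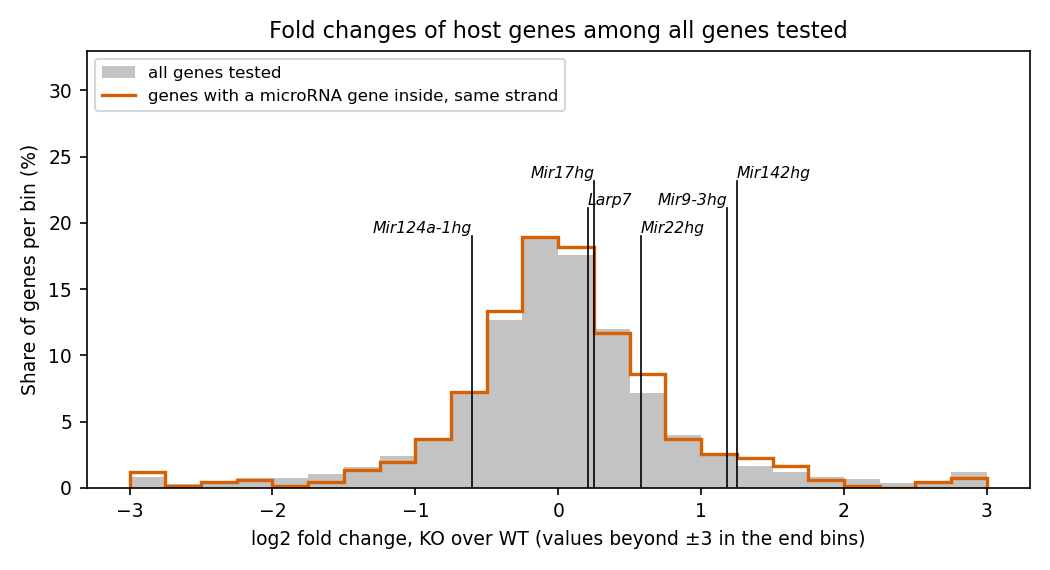
Share of genes (y axis, percent) in bins of log2 fold change, KO over WT (x axis), for all 14427 genes tested (grey) and for the 675 with a microRNA gene inside them (orange), with the 6 host transcripts as vertical lines. Both distributions centre near 0, and the 6 transcripts lie between -0.61 and 1.25.

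Protein-coding hosts known from textbooks, 40 listed and 37 tested, had 5 higher (13.5%) and 0 lower, against 7.42% and 4.96% of all genes, with a median of 0.09. The phosphatase genes Ctdsp1 and Ctdsp2, which host copies of miR-26, rose by 1.45 (SE 0.26) and 0.67 (SE 0.17). Sfmbt2, a Polycomb-type gene whose intron holds a large array of microRNAs, rose by 1.54 (SE 0.32, edgeR adjusted p = 0.0167), with 98.7 and 49.7 CPM in KO and 30.6 and 20.4 in WT. The chloride transporter gene Clcn5 rose by 0.86 (SE 0.22) and the axon guidance gene Slit2 by 1.55 (SE 0.42). Among other settings, calls were lost without KO library 1 for Sfmbt2 (0.97), Ctdsp2 (0.82), Clcn5 (0.70) and Slit2 (0.855), without KO library 2 for Ctdsp1 (1.35), Ctdsp2 (0.52) and Clcn5 (1.02), and without WT library 1 for Slit2 (1.41), and that of Clcn5 also at equal depth (0.81).

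A list of 10 non-coding genes was drawn up as hosts with other names. Of 9 tested, 2 were higher and 0 lower, against 7.42% and 4.96% of all genes, with a median of 0.29. By position, 6 of the 10 hold a microRNA gene on their strand, and Mirt1, Snhg14, Gas5 and Lncpint do not. H19, the imprinted host of miR-675, held 88 and 96 counts in KO and 17 and 26 in WT and rose by 1.92 (SE 0.43, edgeR adjusted p = 0.0212, and 1.80 with an adjusted p of 0.0842 without KO library 2). Mirt1, the other called gene of the list and no host by position, held 57 and 45 in KO and 16 and 6 in WT. It rose by 2.07 (SE 0.54, edgeR adjusted p = 0.0358), and 1 of its WT libraries, against both KO libraries, reached the level of the low-count filter. The call of Mirt1 was lost, among other settings, on leaving out KO library 1 (1.97), WT library 2 (1.63) or KO library 2 (2.19). Gas5 (0.29) and Mirg, the host of the imprinted chromosome 12 microRNAs (0.46), did not pass. Without WT library 2 both passed (0.47 and 0.91), without WT library 1 they were at 0.14 and 0.11, and Mirg was at 0.085 without KO library 2. Rmst, a host of Mir135a-2 in no list, was named after its values were seen. It was the other non-coding host called by position, with 28 and 13 counts in KO and 1 and 3 in WT (edgeR adjusted p = 0.0382). Rmst passed the low-count filter through the KO libraries alone, and its call was not checked under other settings.

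Genes tied to the hosts' functions were read from lists, to be set beside 7.42% higher and 4.96% lower among all genes. Of 11 tested genes for partners and La-family relatives of LARP7, Hexim1, the inhibitor that 7SK brings to P-TEFb, was the 1 called, with 130 ± 15.7 CPM in KO and 81.1 ± 6.07 in WT (0.68, SE 0.17, edgeR adjusted p = 0.0286), and its call was lost, among other settings, without KO library 1 (0.80) or KO library 2 (0.56). Larp4b (0.43, called without WT library 1 at 0.47), the P-TEFb cyclin gene Ccnt2 (0.32) and Ssb, the La protein gene (-0.27), did not pass, and the list median was 0.22. Of 7 genes for known regulators of miR-17-92, Mycn was higher, with 206 and 183 CPM in KO and 106 and 69.1 in WT (1.15, SE 0.21, edgeR adjusted p = 0.00931), and E2f2 lower, with 56.3 and 48.6 against 89 and 115 (-0.96, SE 0.19, edgeR adjusted p = 0.0129, and -0.85 with an adjusted p of 0.0942 without KO library 2).

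Myc and Max, the partner of both MYC proteins, did not pass. The counts of Myc were 132 and 198 in KO and 524 and 153 in WT, where library 1 stood apart. Its log2 fold change was -1.12 (SE 0.44, edgeR adjusted p = 0.13), -0.17 without WT library 1 and -1.68, then called, without WT library 2, and it was also called with no low-count filter (-1.11). Max was at 0.32 and the list median was 0.14.

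The list of 8 genes for microRNA processing held Drosha and Dgcr8, which act on host transcripts. It also held Xpo5, Dicer1 and Lin28a, whose proteins mainly act on cut hairpins, and Lin28b. Of the 8, 0 were higher and 1 lower, against 7.42% and 4.96% of all genes, with a median of 0.13. Lin28a, whose protein blocks maturation of let-7, was the lower one (-0.84, SE 0.18, edgeR adjusted p = 0.0185, and -0.65 with an adjusted p of 0.199 without KO library 2). Drosha (0.21), the helicase gene Ddx17 (0.47, called without WT library 1 at 0.56 and with no low-count filter at 0.47) and Lin28b (-0.54) did not pass. Of 12 smooth muscle and mesenchymal markers 6 were tested, with 3 lower and 0 higher, against 4.96% and 7.42% of all genes. Of these 3, Col1a1, with 5 and 4 counts in KO and 21 and 17 in WT, passed the low-count filter only through WT. None of the 3 calls was checked under other settings. The summed CPM of the 12 was 25.8 and 43.8 in KO and 67.3 and 86.4 in WT. The part of such cells in the host levels was not tested.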

How the data were processed

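Poly(A) RNA of 4 libraries, 2 KO and 2 WT, was measured with the QuantSeq 3' FWD kit, per the labels' protocols. The authors deposited 1 table holding unnormalized read counts for each Ensembl gene. The submitters' processing notes name Trim Galore and GRCm38, while aligner, counting program, strand setting and annotation are not given in sources used here. Overlapping genes such as Mir22hg and Tlcd2 may therefore share reads. Names and positions came from GENCODE vM21 (GRCm38), which held 55154 of the 55421 identifiers, and mature sequences from RefSeq (GRCm38.p6) by position, with one for 1022 of 2202 microRNA genes.

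Groups came from the titles. All genes were tested for KO against WT in edgeR 4.0.16 under R 4.3.3 (quasi-likelihood, two-sided, TMM, filterByExpr), with Benjamini-Hochberg adjustment over 14427 genes at 0.05, and all 6 hosts passed the filter. CPM is on the TMM scale, ± is the SD of 2 libraries, and the standard error is the log2 fold change over the square root of F. Intervals of fold changes use 9.44 degrees of freedom. Poisson intervals and floors cover counting error only. An exact permutation of 2 against 2 libraries cannot go below p = 0.333. Chi-square per degree of freedom between libraries was 11.3 within KO, 18.9 within WT and 37.1 to 45.4 across groups, so none was a repeat deposit. Scripts were tested on simulated counts. As alternatives, edgeR was run with DESeq2 size factors, DESeq2 1.42.0 was run in its place, and edgeR was run with no low-count filter, mean CPM of 1 or more, a replicate block, thinning to equal depth, omission of small non-coding and mitochondrial genes, and omission of each library.

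The hosts and lists were chosen with earlier results of these data known. Named genes were all 6 hosts, overlapping neighbours with at least 20 counts, up to 4 genes of each list with the smallest p and called ones up to 6, hosts of AAGUGC microRNAs, and the 4 called hosts by position with the largest change. Zgrf1, Wdr81 and Tspoap1, within 10 kb but not overlapping, and single cell type markers were named after their values were seen.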

Additional observations from a re-analysis of the deposited data

How the results depend on the processing

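None of the 6 host transcripts was called under any of the 11 alternatives, and all kept their direction except Mir22hg, which gave -0.15 without KO library 2. With 1 library left out the ranges were 0.12 to 0.29 for Larp7, 0.13 to 0.38 for Mir17hg, -0.87 to -0.28 for Mir124a-1hg, 0.96 to 1.63 for Mir142hg, 0.84 to 1.67 for Mir9-3hg and -0.15 to 1.07 for Mir22hg. The group left with a lone library is then assumed to vary like the other. Of the neighbours, Zgrf1 ranged from -0.28 to 0.0032, above 0 without KO library 1, and Tlcd2 from -0.72 to 0.25, above 0 without WT library 2. With 1 library left out the counts over all genes lay between 556 (without KO library 2) and 1477 higher, against 1071, and between 285 (without KO library 1) and 1011 lower, against 715. Without KO library 1, 586 were higher, and without KO library 2, 319 were lower. With no low-count filter 1193 were lower. Numbers 1 and 2 in the titles are shared between groups, and whether they pair libraries is not given in the labels. The correlation of deviations of same-numbered libraries was -0.0686 over 14427 genes, which cannot settle how the libraries were prepared. With the replicate block 638 genes were higher and 370 lower, and 0 of the 6 hosts were called. The block also ended the calls of Tspoap1 (adjusted p = 0.0798), Hexim1 (0.0647), Ctdsp2 (0.0634), Clcn5 (0.0617), Slit2 (0.0958), Mirt1 (0.0676), Cpne7 (0.0541) and Acoxl (0.0517), and no other call of the genes carried through these settings. The cause of these changes was not tested. Mir9-3hg and Mir142hg rest on 7 to 42 counts per library, and thinning to equal depth moved Mir142hg to 1.43 (adjusted p = 0.0961).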
